A study of Mus musculus with 2 samples.

Results

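The BAF complex is the mammalian SWI/SNF chromatin remodeller, an assembly that uses ATP to slide or eject nucleosomes and so opens promoters and enhancers. Several of its positions can be filled by any of a few paralogous proteins, 1 at a time, and the choice differs between tissues. In the developing heart the complex works with cardiac transcription factors, and Smarcd3 and Dpf3 are the subunits known for their expression in heart and muscle precursors. The 10 genes described here are the ATPases Smarca4 and Smarca2, the scaffolds Smarcc1 and Smarcc2, the SMARCD subunits Smarcd1, Smarcd2 and Smarcd3, the DNA-binding subunits Arid1a and Arid1b, and the histone reader Dpf3. They were chosen by gene symbol and not by a rule on measured values, although earlier results of these data were already known. All 10 were found among the 43346 Ensembl genes quantified.

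The study measured RNA in the heart of embryonic day 15.5 mice of strain B6NCrl. Both libraries belong to 1 group: replicate 1 came from a pool of 78 embryos and replicate 2 from a pool of 62, each healthy and of mixed sex, with no treatment or mutant named. Each library began with 10 ng of RNA over 200 nucleotides long, carried spike-in RNAs and held 41883313 (replicate 1) and 39697992 (replicate 2) estimated counts. There is no second condition, so the comparisons are between paralogs within a library and between the 2 pools; with 2 libraries the smallest two-sided p of an exact sign-flip test is 0.5, and no p is given for them.

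The labelled tissue carried its markers: all 10 cardiomyocyte genes examined, among them Tnnt2, Actc1 and Nkx2-5, stood above 1 TPM in both libraries, with a summed level of 37302 TPM in replicate 1 and 30817 in replicate 2. TPM, the field's length-normalised unit of transcript abundance, divides the counts by transcript length and library size, so it can be compared between genes. The pools were not alike in other tissues' markers. The summed level of 10 thymocyte genes was 17.4 TPM in replicate 1 and 179 in replicate 2, with 9 of 10 higher in replicate 2 and Dntt at 0.05 in both. The 11 neuron and neural crest genes, all of them higher in replicate 2, summed to 12.9 and 76.4 TPM. Liver genes summed to 13.9 and 104 TPM and lung epithelium genes to 132 and 329 TPM. Fibroblast genes summed to 2399 and 2882 TPM, endothelial genes to 376 and 436, smooth muscle genes to 1175 and 1233, erythroid genes to 38314 and 38754 and macrophage genes to 116 and 172. Of the 10 cardiomyocyte genes, 1 was higher in replicate 2. In whole-heart RNA, fewer cells of a type and less RNA per cell cannot be told apart.

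All 10 genes were expressed in both libraries at 1 TPM or more, a level that 58.2% of the 21474 protein-coding genes reached. At 5 TPM or more in both libraries there were 9 of the 10, against 44.4% of protein-coding genes, and the exception was Arid1b. Their median level was 23.8 TPM, beside 15.8 TPM for the 12491 protein-coding genes at 1 TPM or more. Smarcd3 had the highest mean, 46.4 ± 3.33 TPM (SD, n = 2), followed by Smarca4 at 40.0 ± 10.2 TPM, Smarcc2 at 38.5 ± 3.98 TPM and Smarcc1 at 34.8 ± 4.99 TPM. Each one's range over the libraries overlapped that of the next, but both values of Smarcd3 lay above both of Smarcc2 and both of Smarcc1, and Smarcd3 was above Smarca4 within each library. A step followed: the lower Smarcc1 value lay above both values of Smarca2, whose mean was 25.4 ± 1.42 TPM. Smarcd2 (22.3 ± 10.1 TPM), Smarcd1 (16.0 ± 3.65 TPM), Dpf3 (15.7 ± 2.03 TPM) and Arid1a (15.2 ± 2.21 TPM) then overlapped in turn. Arid1b, at 5.67 ± 2.11 TPM, was below Arid1a in both libraries without overlap. The first place of Smarcd3 depended on which transcripts were counted. With protein-coding transcripts alone, Smarcd3 had 31.23 and 35.06 TPM. That was below Smarca4 (32.79 and 47.26 TPM), Smarcc2 (35.66 and 41.30 TPM) and Smarcc1 (31.29 and 38.34 TPM) within each library.

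**Figure D1:**
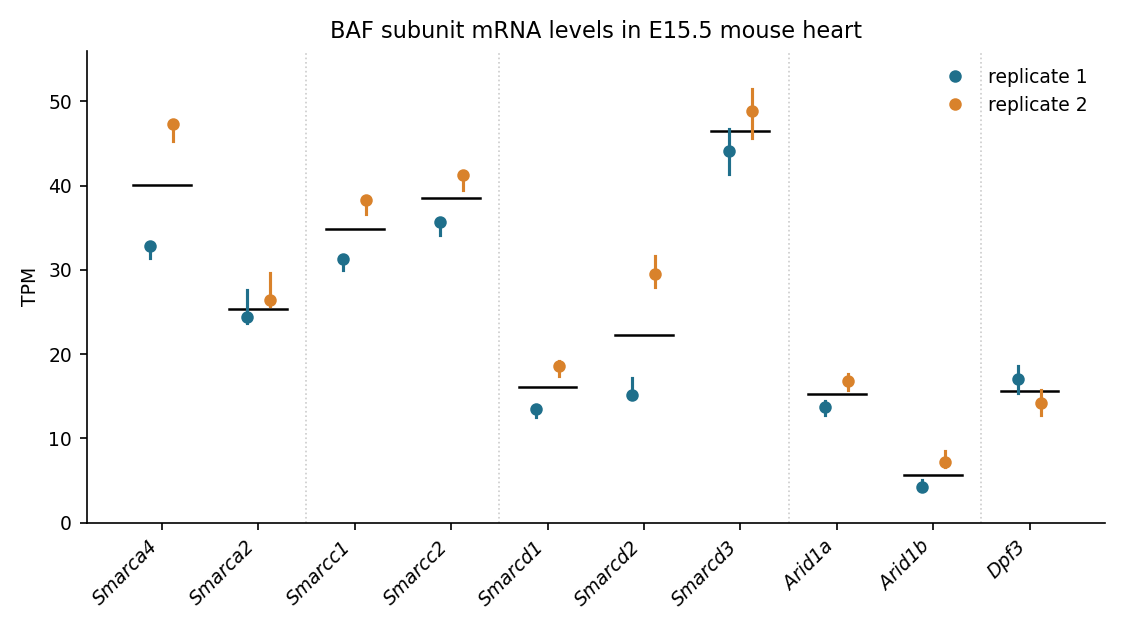
TPM of the 10 genes in replicate 1 (blue) and replicate 2 (orange), grouped by position in the complex, with the mean as a black line; the coloured bars are the deposited bounds, which belong to a posterior mean and whose level is not stated. With all transcripts counted, Smarcd3 is highest in mean, Arid1b lowest, and Smarca4 and Smarcd2 have the widest gaps between libraries.

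The ATPase position holds the engine of the complex. Smarca4, which encodes BRG1, lies at chr9:21616169-21704230 on the plus strand (mm10) and had 32.78 TPM in replicate 1 and 47.26 TPM in replicate 2. Smarca2, which encodes the alternative ATPase BRM, lies at chr19:26605050-26778322 on the plus strand and had 24.35 and 26.36 TPM. Smarca4 was therefore the higher ATPase in both libraries, and both of its values lay above both of Smarca2. It supplied 57.4% and 64.2% of the summed ATPase level (60.8% ± 4.82, SD, n = 2), a log2 ratio to Smarca2 of 0.43 in replicate 1 and 0.84 in replicate 2. The 95% counting interval of that ratio was 0.36 to 0.50 in replicate 1 and 0.78 to 0.91 in replicate 2, so the libraries differed by more than counting error, which is all that such intervals cover.

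Which Smarca2 transcripts are counted moved that share more than the choice of library. The 2 genes differ in this respect. Smarca4 had 100% of its level in transcripts classed as protein-coding that carry at least 50% of the longest annotated coding sequence. In Smarca2, which has 19 transcripts in the files, such transcripts made up 25.8% of the gene's level in replicate 1 and 39.2% in replicate 2, which is 6.28 and 10.32 TPM. Transcripts that the GENCODE M21 annotation classes as targets of nonsense-mediated decay, the pathway that destroys messages with an early stop, held 38.5% and 41.4%. Among these, Smarca2-202 carries 94.3% of the longest coding sequence but was left out of the protein-coding class above. Shorter or partial coding transcripts held 30.0% and 16.1%. With protein-coding transcripts alone the Smarca4 share was 73.6%. With only those of at least 50% coding length, an alternative chosen after seeing the data, it was 83.0% (both values are means of 2 libraries). Expected counts, which are not divided by length, gave 73.2%. Smarca4 remained the higher ATPase in each of these.

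The leading Smarca2 transcripts were Smarca2-201, the near full-length message, with 25.8% and 37.5% of the gene's TPM, and Smarca2-215, a decay-class model with 26.3% and 33.1%. The files give Smarca2-215 a length of 1460 bases and M21 gives it 2018, so its class may not describe the older model that was quantified; 10 of the 19 Smarca2 transcripts differ in length this way. Smarca2-202, also of the decay class, held 12.2% and 8.34%, and Smarca2-203, a short message of 708 coding bases, held 11.6% and 8.29%. The transcripts that begin at or after the start of Smarca2-203 together held 28.6% in replicate 1 and 16.5% in replicate 2. The coding starts of Smarca2-201 and Smarca2-203 are shown because they separate the long and the short message; both are on the plus strand of chromosome 19 in the M21 transcripts (GRCm38, the same build as mm10), at chr19:26619720-26619779 and chr19:26751851-26751910, and the capitals mark the first codon.
Smarca2-201 coding start: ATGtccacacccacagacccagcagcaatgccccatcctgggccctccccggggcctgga
Smarca2-203 coding start: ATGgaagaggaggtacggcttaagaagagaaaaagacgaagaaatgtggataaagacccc
The first coding base of Smarca2-203 is base 4042 of the Smarca2-201 coding sequence, in the same frame, so the short message lacks the first 1347 codons of the long one.

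Smarca4 was carried by 2 transcripts in both libraries. Smarca4-204 held 72.4% of the gene's TPM in replicate 1 and 69.7% in replicate 2, and Smarca4-202 held 26.9% and 28.3%. They differ in the coding sequence by a block of 9 bases and another of 3 that Smarca4-204 lacks. The 9-base block, at chr9:21686013-21686021 on the plus strand, is shown in capitals with its coding flanks because it is the longer of the 2 differences; the stretch spans introns between chr9:21679124 and chr9:21686045.
Smarca4-202 extra block: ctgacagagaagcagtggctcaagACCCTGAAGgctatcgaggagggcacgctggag
Smarca4-204 was the higher of them in both libraries without overlap, at 23.73 and 32.92 TPM against 8.82 and 13.38 TPM.

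Because paralogs can share reads, the coding sequences of the pair were aligned. Smarca4-202 and Smarca2-209 matched at 75.2% of 4676 aligned bases, and their longest exact shared run was 20 bases. That run is shown in capitals in each gene, at chr9:21635730-21635779 and chr19:26630870-26630919, both on the plus strand.
Smarca4: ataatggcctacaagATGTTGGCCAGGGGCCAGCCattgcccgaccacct
Smarca2: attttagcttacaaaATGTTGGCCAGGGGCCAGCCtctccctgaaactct
Both flanks differ between the genes. Over all paralog pairs examined, coding identity ran from 70.6% (Dpf2 with Dpf3) to 75.2%, and the longest exact shared run was 31 bases (Dpf1 with Dpf3).

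**Figure D2:**
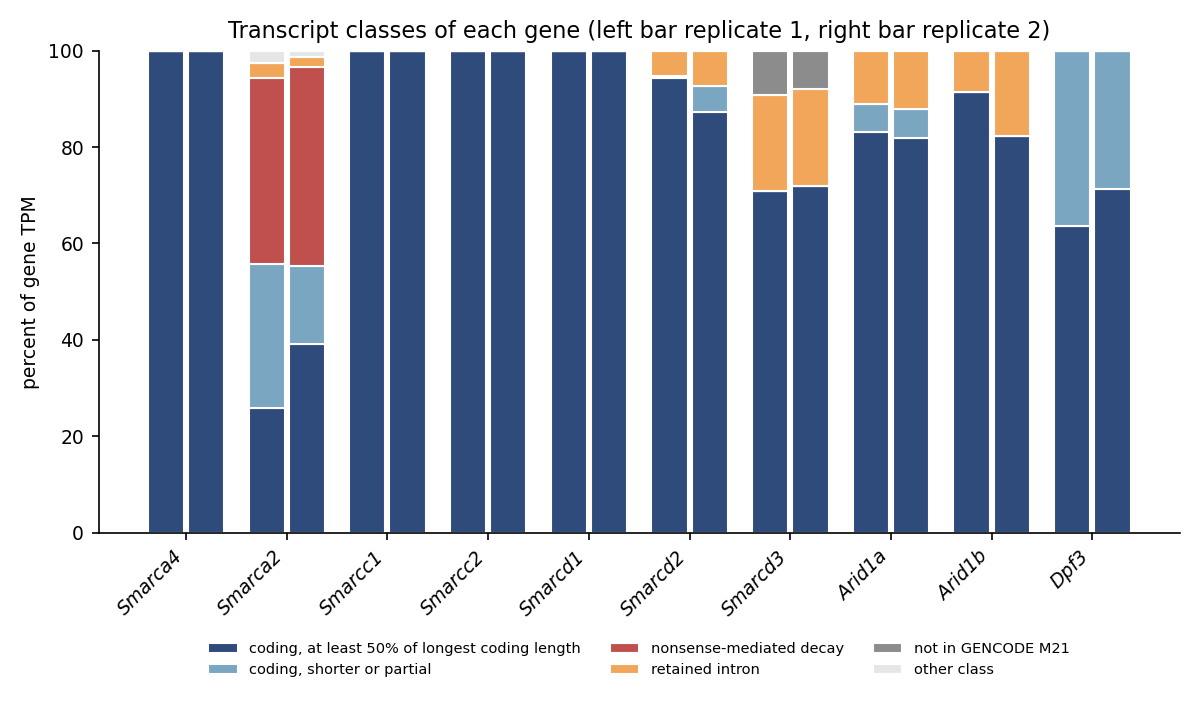
Percent of each gene's TPM by transcript class in replicate 1 (left bar) and replicate 2 (right bar). Smarca2 is the gene with a decay-class share (38.5% and 41.4%), Smarcd3 has a retained-intron share (20.1% and 20.2%), and Smarca4, Smarcc1, Smarcc2 and Smarcd1 are wholly in longer coding transcripts.

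The scaffolds Smarcc1 and Smarcc2 hold the core of the complex together, and each complex carries a pair of them. Smarcc1 (chr9:110117708-110240178, plus strand) had 31.29 and 38.34 TPM, and Smarcc2 (chr10:128459248-128490482, plus strand) had 35.67 and 41.30 TPM. Smarcc2 was a little higher within each library, but the ranges of the 2 genes overlapped. Smarcc1 made up 46.7% and 48.1% of the sum (47.4% ± 0.999, SD, n = 2), so the 2 paralogs were near parity and this was among the steadiest of the shares. On expected counts, which leave out length, the order turned: Smarcc1 then held 52.4%.

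Smarcc1 was quantified as 1 transcript and Smarcc2 as 3, all coding. Smarcc2-201 led with 73.5% of the gene's TPM in replicate 1 and 61.1% in replicate 2. Smarcc2-202 held 16.3% and 16.4%, and Smarcc2-203 held 10.2% and 22.5%. The lengths of all 3 in the files differ from M21. Smarcc2-202 and Smarcc2-203 each add a coding block that Smarcc2-201 lacks, of 93 and 342 bases, at chr10:128481682-128481774 and chr10:128488018-128488359. These blocks are where the M21 coding sequences of the 3 messages differ, so they are shown on the plus strand. The block is in capitals (for Smarcc2-203 its first 93 bases) and flanking coding bases are in lower case.
Smarcc2-202 extra block: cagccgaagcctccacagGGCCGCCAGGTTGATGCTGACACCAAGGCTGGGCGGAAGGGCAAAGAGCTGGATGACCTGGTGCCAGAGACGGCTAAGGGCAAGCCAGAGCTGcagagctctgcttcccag
Smarcc2-203 extra block: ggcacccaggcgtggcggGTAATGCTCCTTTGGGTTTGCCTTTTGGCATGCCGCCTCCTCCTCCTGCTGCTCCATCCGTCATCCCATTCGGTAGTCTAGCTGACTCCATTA
For the gene as a whole the libraries differed by less than counting error, with a log2 ratio of replicate 2 over replicate 1 of -0.01 on scaled counts.

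The SMARCD subunits connect the core to transcription factors, and Smarcd3 (BAF60C) is the form known from heart and skeletal muscle. Smarcd3, at chr5:24590818-24624411 on the minus strand, had 44.09 TPM in replicate 1 and 48.80 TPM in replicate 2. Smarcd1, at chr15:99702129-99713991 on the plus strand, had 13.45 and 18.61 TPM. Smarcd2, at chr11:106263179-106272972 on the minus strand, had 15.11 and 29.46 TPM. Smarcd3 was thus the highest of the 3 in both libraries, and neither of the others reached its lower value. It made up 60.7% and 50.4% of the summed SMARCD level, a mean of 55.5% ± 7.29 (SD, n = 2). Smarcd1 held 18.5% and 19.2%, and Smarcd2 held 20.8% and 30.4%.

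The lead of Smarcd3 over Smarcd1 was 1.71 on the log2 scale in replicate 1 and 1.39 in replicate 2 (1.55 ± 0.23, SD, n = 2), or 3.28-fold and 2.62-fold. Its lead over Smarcd2 was 1.54 and 0.73 (1.13 ± 0.57). Smarcd2 over Smarcd1 was 0.17 and 0.66, and the ranges of those 2 genes overlapped. The lower Smarcd3 share in replicate 2 stood beside a higher Smarcd2: on counts scaled by TMM, edgeR's trimmed mean of gene ratios, the log2 ratio of replicate 2 over replicate 1 was -0.03 for Smarcd3 and 0.63 for Smarcd2. The Smarcd3 share was 48.1% with protein-coding transcripts alone and 38.6% with expected counts, which are not divided by length. It was the highest mean share at the position in each, although in replicate 2 alone Smarcd2 had the larger share of counts, 36.1% against 34.7%.

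Smarcd3-201 was the leading message, with 70.8% of the gene's TPM in replicate 1 and 71.8% in replicate 2, or 31.23 and 35.06 TPM. Retained-intron transcripts held 20.1% and 20.2%, and 1 transcript that M21 no longer lists held 9.10% and 7.95%. Smarcd3 overlaps Chpf2, a gene on the opposite strand, over 2466 of its 5120 exonic bases, 642 of them in Smarcd3-201. Chpf2 had 9.71 and 12.96 TPM. The sources used here do not say whether reads were counted by strand, so those from the shared stretch cannot be assigned with certainty; the part of this overlap in the Smarcd3 level was not tested. Smarcd1 was quantified as 1 transcript, which overlaps the opposite-strand gene Gm17349 (3.87 and 3.42 TPM) over 287 bases.

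Smarcd2-201 held 94.3% of Smarcd2 in replicate 1 and 70.9% in replicate 2. Smarcd2-203, whose coding sequence lacks 216 bases of Smarcd2-201, held 0% and 16.5%. Smarcd2 thus differed between the pools in level and in the estimated make-up of its transcripts, for which no interval was computed. The longest exact run that Smarcd1 and Smarcd3 coding sequences share, 21 bases, is shown in capitals (chr15:99703291-99703742, plus strand, and chr5:24596070-24598594, minus strand, each across an intron) to show how alike the coding sequences are at their closest; untranslated parts, other transcripts and inexact matches were not compared.
Smarcd1: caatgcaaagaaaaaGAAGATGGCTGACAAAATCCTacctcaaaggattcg
Smarcd3: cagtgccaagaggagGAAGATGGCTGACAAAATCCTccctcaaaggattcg
The 3 SMARCD coding sequences were 72.2% to 73.9% identical.

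**Figure D3:**
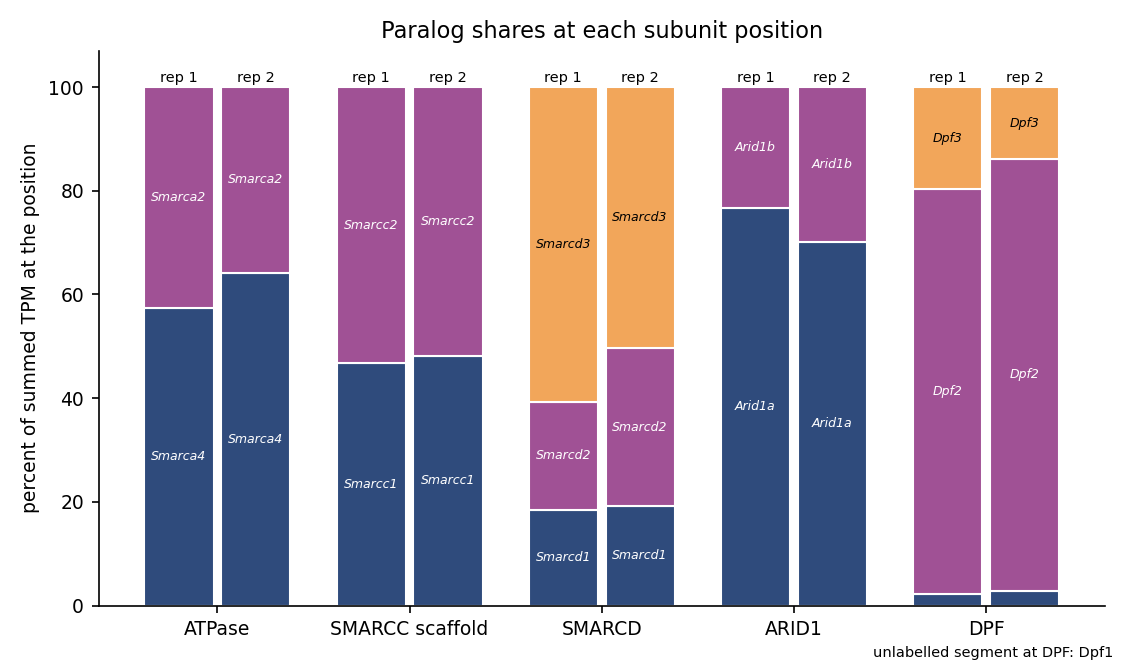
Share of each paralog in the summed TPM at its position, as stacked bars from 0 to 100% for replicate 1 and replicate 2. Smarca4, Smarcd3, Arid1a and Dpf2 lead their positions in both libraries, and Smarcc1 and Smarcc2 divide theirs nearly evenly.

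Arid1a and Arid1b encode the large DNA-binding subunits that define the canonical BAF complex; Arid2 takes the equivalent place in the related PBAF complex. Arid1a (chr4:133679008-133756769, minus strand) had 13.67 and 16.80 TPM, and Arid1b (chr17:4994332-5347656, plus strand) had 4.17 and 7.16 TPM. Arid1a was higher in both libraries without overlap. It held 76.6% and 70.1% of the 2-gene sum (73.4% ± 4.60, SD, n = 2), a log2 ratio of 1.69 and 1.22. The alternatives left it between 69.2% on expected counts and 73.9% on protein-coding transcripts. Arid2 had 9.60 and 12.33 TPM, between the 2 BAF paralogs. With Arid2 in the sum, Arid1a held 49.8% and 46.3%, Arid2 35.0% and 34.0%, and Arid1b 15.2% and 19.7%.

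Arid1a-205 carried 82.8% of Arid1a in replicate 1 and 78.1% in replicate 2. Arid1b was spread over more messages. Arid1b-203 held 68.8% and 62.2%. Arid1b-202, which has 1356 coding bases at the start of the gene that Arid1b-203 lacks, held 21.7% and 5.21%, and Arid1b-201 held 0.76% and 14.9%. Arid1b-202 was thus the higher of these in replicate 1 and Arid1b-201 in replicate 2, and neither was above 1.06 TPM in either library. The retained-intron transcript Arid1b-205 held 7.27% and 17.8%.

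Dpf3 encodes a subunit known for paired PHD fingers that read modified histone H3, and its mRNA marks heart and somites in the embryo. The gene lies at chr12:83213745-83487716 on the minus strand. It had 17.09 TPM in replicate 1 and 14.22 TPM in replicate 2, from 554 and 476 counts, and was the 1 member with a lower TPM in replicate 2. The other 9 members were higher in replicate 2 by TPM, as were 76% of protein-coding genes at 1 TPM or more. Its paralog Dpf2, expressed widely across tissues, had 67.68 and 85.39 TPM, and Dpf1, known from neurons, had 2.00 and 2.93 TPM. Dpf3 was therefore well below Dpf2 in this tissue and above Dpf1, with no overlap in either case. It made up 19.7% and 13.9% of the DPF sum (16.8% ± 4.12, SD, n = 2), and its log2 ratio to Dpf2 was -1.98 and -2.58. With Phf10, the PBAF paralog at 17.55 and 23.21 TPM, in the sum, Dpf3 held 16.4% and 11.3%.

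The Dpf3 share changed with what was counted. It was 23.7% with protein-coding transcripts alone, where Dpf2 loses its decay-class (12.9% and 20.3%) and other non-coding transcripts, and 9.72% with expected counts. With protein-coding transcripts of at least 50% coding length it was 17.3%, close to the 16.8% from the whole gene. That setting leaves out the partial model Dpf3-202. It also leaves out the decay-class Dpf2-201, which has 52.7% of the longest Dpf2 coding length. In each of these settings Dpf3 stayed below Dpf2.

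Dpf3 is known in forms that differ at the carboxyl end, and the transcripts fell into groups by their coding end. The 4 transcripts that end as Dpf3-206 does held 59.0% of the gene's TPM in replicate 1 and 62.4% in replicate 2, or 10.09 and 8.88 TPM. The 2 that end as Dpf3-207 does held 4.56% and 9.00%, or 0.78 and 1.28 TPM. Dpf3-202, a partial model annotated as incomplete, held the remaining 36.4% and 28.6% and belongs to neither. The Dpf3-206 end was thus the higher in both libraries without overlap. The 2 ends are shown from the last 24 shared bases (lower case) into the first 60 that differ (capitals), minus strand, each across an intron, with the furthest bases at chr12:83269568-83272362 for Dpf3-206 and chr12:83226321-83272362 for Dpf3-207.
Dpf3-206 end: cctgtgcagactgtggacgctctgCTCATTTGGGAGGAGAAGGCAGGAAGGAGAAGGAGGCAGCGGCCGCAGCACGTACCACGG
Dpf3-207 end: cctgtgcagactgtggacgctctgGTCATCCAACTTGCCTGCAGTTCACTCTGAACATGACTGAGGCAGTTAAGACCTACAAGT
The split comes at an exon boundary, after which the Dpf3-206 message uses 200 coding bases of its own and Dpf3-207 uses 263. Whether each end encodes complete PHD fingers was not examined. The level of each end therefore does not say how much Dpf3 message encodes a histone reader.

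The rest of the complex was taken from a list of 21 other subunit genes, of which 20 reached 1 TPM in both libraries; the exception was Actl6b. The shared core subunits were high: Smarcb1 had 77.58 and 97.48 TPM and Smarce1 had 112.67 and 117.64 TPM. Actl6a, the actin-like subunit of proliferating cells, had 62.89 and 74.47 TPM. Its paralog Actl6b, the form that replaces it in neurons, had 0.10 and 1.49 TPM from 3 and 54 counts. Ss18 had 51.79 and 59.38 TPM and its paralog Ss18l1 had 2.04 and 3.41. These 2 positions were nearly single-paralog: Actl6a held 99.8% and 98.0% and Ss18 held 96.2% and 94.6%. The BCL7 position was mixed, with Bcl7a at 16.2% and 17.1%, Bcl7b at 45.4% and 38.5%, and Bcl7c at 38.4% and 44.4%.

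Summed over paralogs, the positions were not at one level. The ATPases summed to 57.13 and 73.62 TPM, the SMARCC scaffolds to 66.96 and 79.64, the SMARCD subunits to 72.65 and 96.87, and the DPF subunits to 86.77 and 102.54. Arid1a and Arid1b summed to only 17.84 and 23.96 TPM, below each of those in both libraries. The PBAF subunits Pbrm1 (75.18 and 82.60 TPM) and Brd7 (57.13 and 52.39 TPM) and the non-canonical subunit Brd9 (23.27 and 24.68 TPM) were all above that sum within each library. The non-canonical scaffolds Bicra (2.97 and 4.79 TPM) and Bicral (2.27 and 2.49 TPM) were near the bottom of the list.

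Among 18 ATPase genes of other remodelling families, 17 reached 1 TPM in both libraries, and their median was 15.6 TPM. The highest was Atrx, with a mean of 98.8 TPM, and the lowest was Chd5, a gene known from neurons, with 0.115 TPM. Smarca4 stood with Srcap (30.09 and 43.51 TPM), Smarca5 (27.93 and 34.42 TPM) and, above it, Chd4 of the NuRD complex (50.42 and 52.31 TPM).

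The 2 pools were then compared gene by gene, with a change taken as more than 1.5-fold on TMM-scaled counts among genes with at least 10 counts in both. Of the 10 genes, 1 was past that in replicate 2, Smarcd2, where 11.2% of the 17054 genes tested were higher; none was lower, where 4.76% of genes were. Smarcd2 had 1247 counts in replicate 1 and 2035 in replicate 2, a log2 ratio of 0.63 with a 95% counting interval of 0.53 to 0.74, which includes the 1.5-fold line. Arid1b (0.31), Smarca4 (0.30), Smarcd1 (0.23), Smarca2 (0.10) and Smarcc1 (0.06) were higher in replicate 2 and Dpf3 (-0.29) was lower. These amounts exceeded counting error but not 1.5-fold. The Smarcc1 interval, 0.005 to 0.110, came close to 0. The median of the 10 was 0.08 and that of all genes tested was -0.02, with a median size of 0.22 in either direction. The other BAF gene past the fold was Bcl11b, a zinc-finger subunit known from T cells and neurons, at 0.92 with 484 and 964 counts; that makes 2 of 30 BAF genes higher and 0 lower. With spike-ins as the scale the split was 0 higher and 22 lower of 30, where 3.24% and 76.7% of all genes were, and the scale itself lowers each log2 ratio: the median of all genes was -0.85. Scaled by total counts, 4 of the 30 were higher (15.4% of all genes) and 0 lower (2.36%), and at 2-fold on the TMM scale 0 were higher (5.85%) and 0 lower (0.932%).

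Of the genes on this list known from neurons or lymphocytes, 4 were higher on TMM-scaled counts in replicate 2, and Bcl11a was not. That library also had the higher thymocyte and neuron marker sums. On TMM-scaled counts the median log2 ratio of all genes tested was -0.02. By TPM Bcl11a was higher in replicate 2 too (11.54 and 12.76), as were 76% of protein-coding genes at 1 TPM or more. Actl6b had 3 counts in replicate 1, below the filter, and 54 in replicate 2. Ss18l1, the neuronal paralog of Ss18, had a log2 ratio of 0.51, Dpf1 of 0.26 with an interval that reached below 0, and Bcl11b of 0.92. Bcl11a, the paralog of Bcl11b, had a log2 ratio of -0.11, or 0.06 when scaled by total counts; scaled by spike-ins, the ratios of Ss18l1 (-0.33), Dpf1 (-0.57) and Bcl11a (-0.95) were all below 0. These 5 were singled out after their values were seen. Dpf3, the 1 member with a lower TPM in replicate 2, moved the same way as the cardiomyocyte sum of 37302 and 30817 TPM. Smarcd3, the other cardiac subunit, did not: it had 44.09 and 48.80 TPM. Its log2 ratio on scaled counts was -0.03 with a counting interval that included 0. The PBAF subunit Brd7 was also lower in replicate 2, with a log2 ratio of -0.27 against -0.29 for Dpf3. Of all genes tested, 18.4% had a lower ratio than Dpf3. The part of the other tissues' RNA in these values, and in that of Smarcd2, was not tested.

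**Figure D4:**
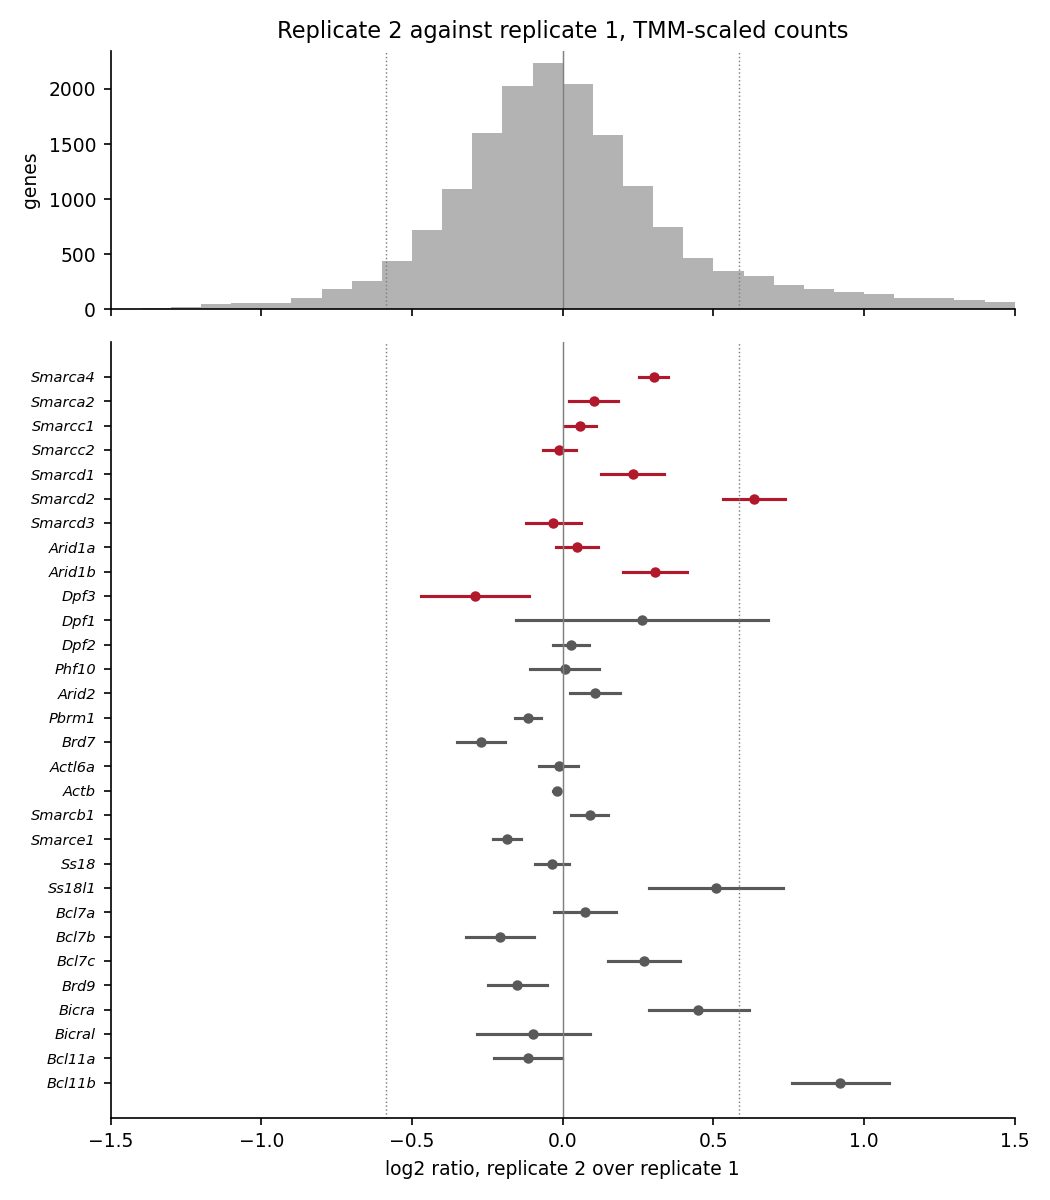
Log2 ratio of replicate 2 over replicate 1 on TMM-scaled counts. The histogram gives all genes tested within the axis range, the points give the 10 members (red) and the other BAF genes with at least 10 counts (grey), bars are 95% counting intervals and dotted lines mark 1.5-fold; Smarcd2 and Bcl11b lie past the upper line and no gene past the lower.

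**Figure D5:**
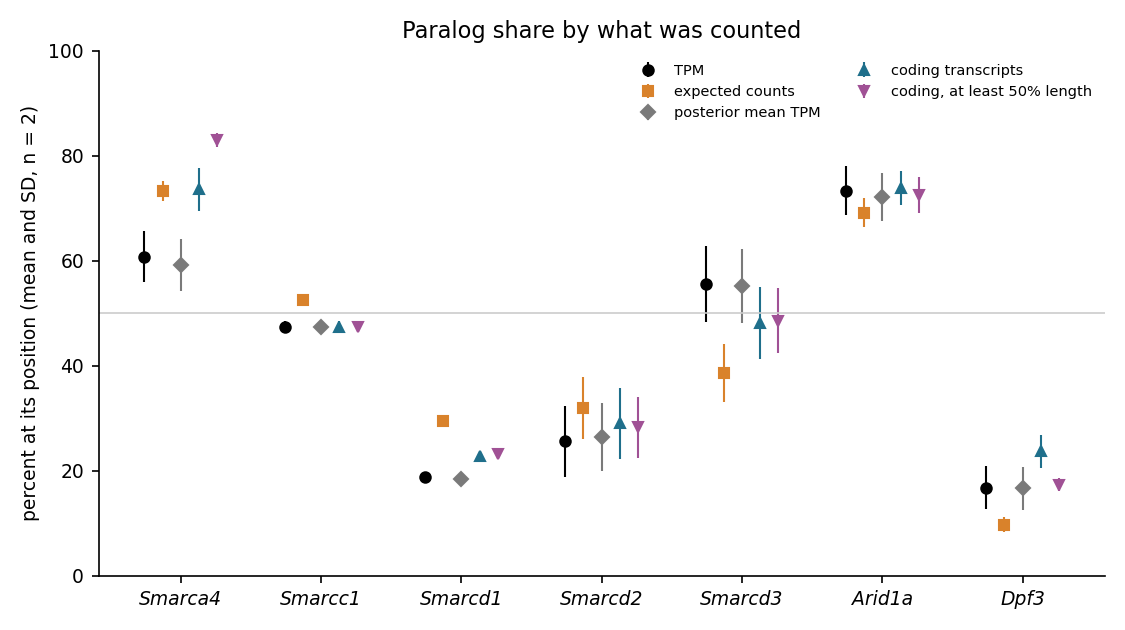
Share of each paralog at its position (percent, mean and SD of 2 libraries) by what was counted. The measures were TPM, expected counts, posterior mean TPM, protein-coding transcripts, or protein-coding transcripts of at least 50% coding length. Smarca4 spans 59.1% to 83.0%, Smarcc1 crosses the 50% line on expected counts, and Arid1a moves least relative to its spread.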

How the data were processed

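The authors deposited expected counts, TPM, posterior mean TPM with bounds, and the percent of each gene's TPM in each of its transcripts (1 library per file). Per the file headers and the notes beside them, these were made on mm10 with GENCODE M4 from a transcriptome alignment; the sources used here name no aligner or quantifier and do not say whether strand was used. The labels call the RNA total RNA and link a SMARTer Ultra Low kit manual. Symbols, transcript classes, positions and sequences came from GENCODE M21 (42462 of 43346 gene identifiers matched). Shares and log2 ratios were computed from TPM, with 0.1 TPM added to both genes for the ratios. Counting intervals (exact for ratios) used expected counts at 95%. The pools were compared with edgeR 4.0.16 TMM factors (R 4.3.3) and, as an alternative, DESeq2 1.42.0 size factors, using counts rounded to whole numbers; the procedure was tested on simulated data. No molecular identifiers are named, so copies of 1 molecule may be counted more than once and intervals cover counting error only. The members, gene lists and markers were chosen with earlier results of these data known; all members are named, and other genes come from the lists.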

Additional observations from a re-analysis of the deposited data

How the results depend on the processing

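Leaving out each replicate in turn returns the share in the other library, so it tests nothing beyond the spread already given. Smarca4 ran from 57.4% to 64.2%, Smarcc1 from 46.7% to 48.1% and Arid1a from 70.1% to 76.6%, each on 1 side of 50%. Smarcd1 ran from 18.5% to 19.2%, Smarcd2 from 20.8% to 30.4%, Smarcd3 from 50.4% to 60.7% and Dpf3 from 13.9% to 19.7%. Expected counts in place of TPM gave 73.2% for Smarca4, 29.5% for Smarcd1, 38.6% for Smarcd3 and 9.72% for Dpf3, and turned Smarcc1 to 52.4% and its log2 ratio to Smarcc2 to 0.14; counts are not divided by transcript length. Protein-coding transcripts alone gave 73.6% for Smarca4, 22.9% for Smarcd1, 48.1% for Smarcd3 and 23.7% for Dpf3. Protein-coding transcripts of at least 50% coding length gave 83.0% for Smarca4 and 23.1% for Smarcd1. Posterior mean TPM moved no share beyond its SD. Of the BAF genes, 4 were higher in replicate 2 when scaled by total counts (15.4% of all genes), 0 by spike-ins (3.24%) and 0 at 2-fold (5.85%); 22 of 30 were lower by spike-ins, where 76.7% of all genes were. Low depth limits Actl6b (3 counts in replicate 1) most. No paired analysis was possible because both libraries belong to 1 group.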
